A study of Mus musculus with 4 samples.

Results

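Mature dendritic cells carrying Fscn1 and Ccr7 were examined in single-cell RNA-sequencing libraries from mouse liver. A cell was counted as a member when it held at least 2 UMIs (unique molecular identifiers, each standing for 1 captured transcript) of Fscn1, at least 1 UMI of Ccr7, at least 20 UMIs of the class II genes H2-Aa, H2-Ab1 and Cd74 together and no UMI of Cd3d, Cd3e, Cd3g, Cd79a or Cd79b, with at most 5 UMIs of C1qa, C1qb and C1qc. The rule was applied to barcodes of the filtered matrices with at least 500 genes and at most 20% mitochondrial UMIs. It found 287 members among 31290 kept cells. The libraries came from male C57BL/6J mice, 1 on a normal control diet (NCD), 2 on a high-fat diet (HFD) and 1 on the same high-fat diet that was then gavaged daily with JQF, a formula of several herbs also called Jiangtang Qingre Formula. The NCD and HFD mice received distilled water by gavage in its place. The study used the high-fat diet as a model of non-alcoholic fatty liver disease and asked how the immune cells of the liver differ with diet and with JQF. Each library stood for 1 mouse, so that NCD and JQF had no replicate. The only spread between mice behind the p-values between groups was that of the HFD pair.

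Dendritic cells take up antigen in tissues and present its peptides to T cells. The conventional kinds are cDC1, which are specialised in presenting to CD8 T cells, and cDC2, which mainly present to CD4 T cells. On maturation either kind lowers uptake, loads MHC molecules, raises costimulatory ligands and gains CCR7, the chemokine receptor that leads cells along CCL19 and CCL21 into lymph vessels and lymph nodes. Fscn1 encodes fascin, an actin-bundling protein of the long dendrites of mature cells. Mature cells of this kind also carry checkpoint ligands such as PD-L1, and NF-kB, above all its RelB branch, is known to drive much of their programme.

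The members were few. The NCD library held 10 members, the HFD libraries 93 and 106, and the JQF library 78. Median UMIs per member were 35247 in NCD, 17381 and 16572 in the HFD libraries and 17786 in JQF, each above the median of its whole library, which ranged from 7608 to 13081. Gated cDC1 were deeper than the members outside NCD, with medians of 22227, 20673 and 23310 in HFD replicate 1, HFD replicate 2 and JQF and of 35077 in NCD, and cDC2 had medians of 13641 to 21877. A rule that asks for UMIs of Fscn1 and Ccr7 keeps deep cells more readily. All UMIs of the members came to 319693 in NCD, 1880016 and 1959030 in the HFD libraries and 1507493 in JQF. Levels are given below as CPM, the UMIs of a gene scaled to the same total in every sum. Of 31189 distinct barcodes, 101 were shared between libraries, 1 of them a member's.

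The NCD members were a mixed set. Of the 10 cells, 2 held 232 and 394 UMIs of the 7 endothelial genes Stab2, Clec4g, Kdr, Ptprb, Mmrn2, Oit3 and Cdh5, were scored as doublets by Scrublet, and held no UMI of Ccl22, Flt3, Cacnb3 or Il4i1. Scrublet also scored 7 of 93, 17 of 106 and 1 of 78 members of HFD replicate 1, HFD replicate 2 and JQF as doublets. The endothelial list summed to 1971 CPM in the NCD members, where none of its 7 genes was at 0, against 12.6 to 37.8 CPM in the members of the other libraries. This was not particular to the members. Gated cDC2 and cDC1 of NCD held 575 and 322 CPM of the list, against 11.1 to 35.8 and 3.30 to 71.2 CPM in the other libraries. Free RNA, from barcodes outside the called cells, held 4828.5 CPM in NCD and 105 to 640 CPM elsewhere. Among gated endothelial cells, 31.7% of 3336 NCD cells had at least 2 Fscn1 UMIs, against 8.60% to 13.3% in the other libraries, so the Fscn1 limit alone did not keep endothelial cells out. The Cd79a and Cd79b limit removed 39 NCD cells that had passed the Fscn1 and Ccr7 limits, 37 of them scored as doublets, and 6, 5 and 12 cells of HFD replicate 1, HFD replicate 2 and JQF. Shares and called genes of the comparisons with NCD are therefore given with all 10 cells and with the 8 NCD cells left when members with 5 or more endothelial UMIs were taken out of every library, a step chosen after these cells were seen. It also left out 2, 4 and 1 members of HFD replicate 1, HFD replicate 2 and JQF. Shares lost members only. In the tests of genes against cDC2 and cDC1, interactions included, the same limit was applied to the cDC2 and cDC1 as well. The number of cDC2 and cDC1 left out by it is not given here.

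The label held for the members outside NCD by genes the rule did not use. Ccl22, the CCR4 ligand made by mature dendritic cells, had a UMI in 73 of 93 and 88 of 106 members of the HFD libraries, 67 of 78 in JQF and 5 of 10 in NCD. Thinned to 5000 UMIs per cell, Ccl22 was seen in 65.6%, 68.0%, 74.4% and 30.0% of HFD replicate 1, HFD replicate 2, JQF and NCD members, and in no more than 1.31% of the T cells of any library. Cd274, which encodes PD-L1, had a UMI in 81 of 93, 96 of 106, 75 of 78 and 8 of 10 members in the same order. Relb was seen in 92 of 93, 106 of 106, 78 of 78 and 10 of 10, Cacnb3 in 89, 101, 70 and 7, and Flt3, the receptor that marks the dendritic lineage, in 88, 100, 72 and 8. Lists of markers of other liver cells were summed in the members. Outside NCD the hepatocyte list summed to 23.4 to 115 CPM, the macrophage list to 57.4 to 85.2 CPM and the B and plasma cell list to 28.2 to 44.4 CPM, the monocyte list to 46.5 to 67.7 CPM, the plasmacytoid list to 86.3 to 159 CPM and the innate lymphoid list to 105 to 121 CPM. The neutrophil list came to 8.51 and 200.1 CPM in the HFD libraries and 176 CPM in JQF, against 334, 26.2 and 21.2 CPM in their cDC2 and 935 to 1675 CPM in their free RNA. It rested on few cells, since S100a9 had a UMI in 10 of 281 thinned members and 3 cells held 87.9% of its UMIs. The T and NK list came to 1348 to 4424 CPM over the 4 libraries, and nearly all of it was Ccl5, at 1339 to 4413 CPM.

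The genes of the rule are given as a description, since they chose the cells. Fscn1 (GRCm38 chr5:142960343-142973185) stood at 723 CPM in NCD, 1483 and 1408 CPM in the HFD libraries and 1289 CPM in JQF. The median member held 21, 23, 19 and 16.5 Fscn1 UMIs in NCD, HFD replicate 1, HFD replicate 2 and JQF, far from the limit of 2. Ccr7 (chr11:99144196-99155077) stood at 2496 CPM in NCD, 2181 and 2679 CPM in HFD and 2405 CPM in JQF. The order of the Ccr7 levels followed no group, because NCD and JQF both lay between the HFD replicates. At the Fscn1 limit, 19 members held exactly 2 UMIs and 24 cells that met the other limits held exactly 1. At the Ccr7 limit, 3 members held exactly 1 UMI and 24 cells with none lay just outside.

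The HFD libraries held a larger share of mature dendritic cells than the NCD library, and the difference did not pass the test. The share of kept cells was 0.167% in NCD (exact Clopper-Pearson 95% interval 0.0803 to 0.308, 10 of 5975 cells). It was 1.43% (1.15 to 1.75, 93 of 6516) and 1.03% (0.847 to 1.25, 106 of 10259) in the HFD libraries, with a mean of 1.23% ± 0.279 (SD, n = 2). The JQF share was 0.913% (0.723 to 1.14, 78 of 8540). These intervals cover counting error only. The HFD values lay above NCD and JQF lay below both HFD values. With the highest doublet scores removed, the JQF share (0.970%) lay between those of HFD (1.41% and 0.947%). In edgeR's quasi-likelihood test over 13 gated cell types, the log2 ratio of HFD to NCD was 2.86 (SE 0.60, adjusted p = 0.142), and no type passed the threshold of 0.05. Without the endothelial-transcript members the NCD share was 0.134% (0.0578 to 0.264, 8 of 5973) and the ratio 3.14 (SE 0.63, adjusted p = 0.144). With every cell thinned to 5000 UMIs and shallower cells left out, 4 of 4951 NCD cells met the rule (0.0808%), against 74 of 4723 (1.57%) and 85 of 7200 (1.18%) in HFD and 57 of 7028 (0.811%) in JQF. The thinned ratio of HFD to NCD was 4.05 (SE 0.40, adjusted p = 0.058). The ratio of JQF to HFD was -0.43 (SE 0.49, adjusted p = 0.883).

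The log2 ratio of HFD to NCD was smaller with denominators narrower than all kept cells. The part of the makeup of the libraries in the gap was not tested. The NCD library held 3336 gated endothelial cells among its 5975 kept cells. Among cells with a UMI of Ptprc, the pan-leukocyte gene, the members were 0.425% in NCD and 1.05% in JQF. The HFD libraries held 1.56% and 1.23% (1.40% ± 0.228, SD, n = 2), and the log2 ratio of HFD to NCD was 1.71 (adjusted p = 0.122). Among gated mature dendritic cells, cDC1 and cDC2 together, the members were 10.6% in NCD (5.22 to 18.7, and 8.70% or 8 of 92 without the endothelial-transcript members), 18.3% and 18.1% in HFD and 14.7% in JQF. With that denominator the HFD to NCD log2 ratio was 0.77 and the JQF to HFD ratio -0.30. Neither passed the test (adjusted p = 0.215 over 3 types for HFD to NCD). In thinned cells, with shallower cells left out, the NCD share on that denominator was 5.06% (1.40 to 12.5, 4 of 79). It was 14.7% in each HFD library and 11.9% in JQF. The thinned NCD interval met those of HFD and JQF, and the ratio on that denominator was not tested in thinned cells.

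**Figure D1:**
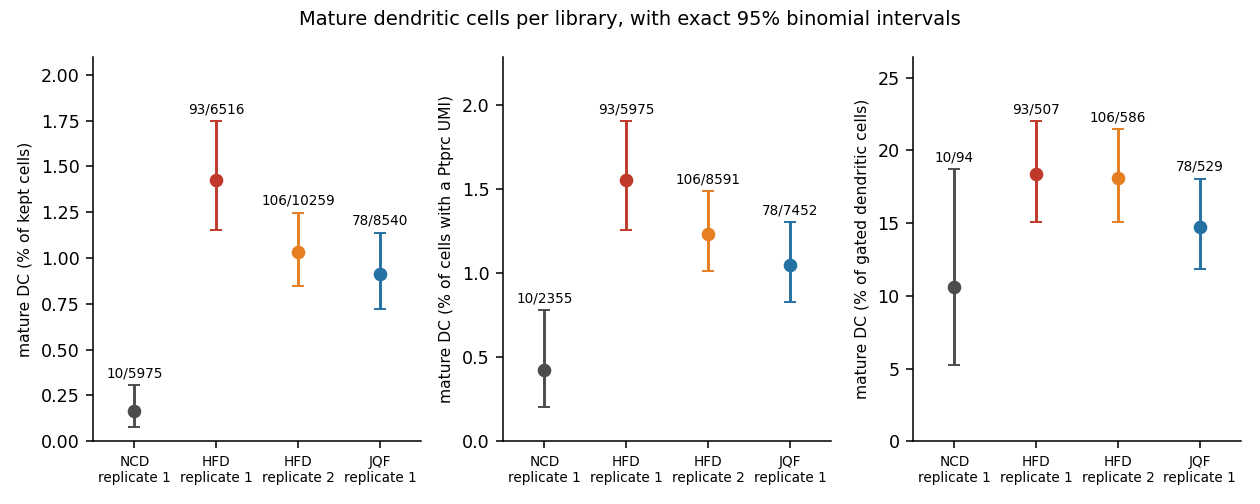
Share of mature dendritic cells in each of the 4 libraries, as a percentage of kept cells, of cells with a Ptprc UMI and of gated dendritic cells. Points are libraries and bars are exact 95% binomial intervals. NCD was lowest on all 3 denominators, at 0.167%, 0.425% and 10.6%, and its interval met those of HFD and JQF only among gated dendritic cells.

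To see in what else the members differed from other dendritic cells of the same mice, the summed UMIs of mature cells, cDC2 and cDC1 were compared within each library. The cDC2 and cDC1 are called immature below only because they were gated without Fscn1 and Ccr7. In NCD the cDC2 held more of the costimulation list than the members, at 7318 against 5224 CPM, and in the other libraries less. The cDC2 were gated on Cd209a (30, 111, 155 and 161 cells in NCD, HFD replicate 1, HFD replicate 2 and JQF) and the cDC1 on Xcr1 and Clec9a (54, 303, 325 and 290 cells), both without Fscn1 and Ccr7, and every gating gene was kept out of the tests. At an adjusted p under 0.05, edgeR's quasi-likelihood test with the library as a block called 3908 of 10448 genes (37.4%) between mature cells and cDC2, 1948 higher (18.6%) and 1960 lower (18.8%). Against cDC1 it called 4528 of 10425 genes (43.4%), 2256 higher (21.6%) and 2272 lower (21.8%). Genes that vary with Fscn1, Ccr7, Xcr1, Clec9a or Cd209a differ here by the choice of the cells. These counts are therefore the background against which each list below is read.

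**Figure D2:**
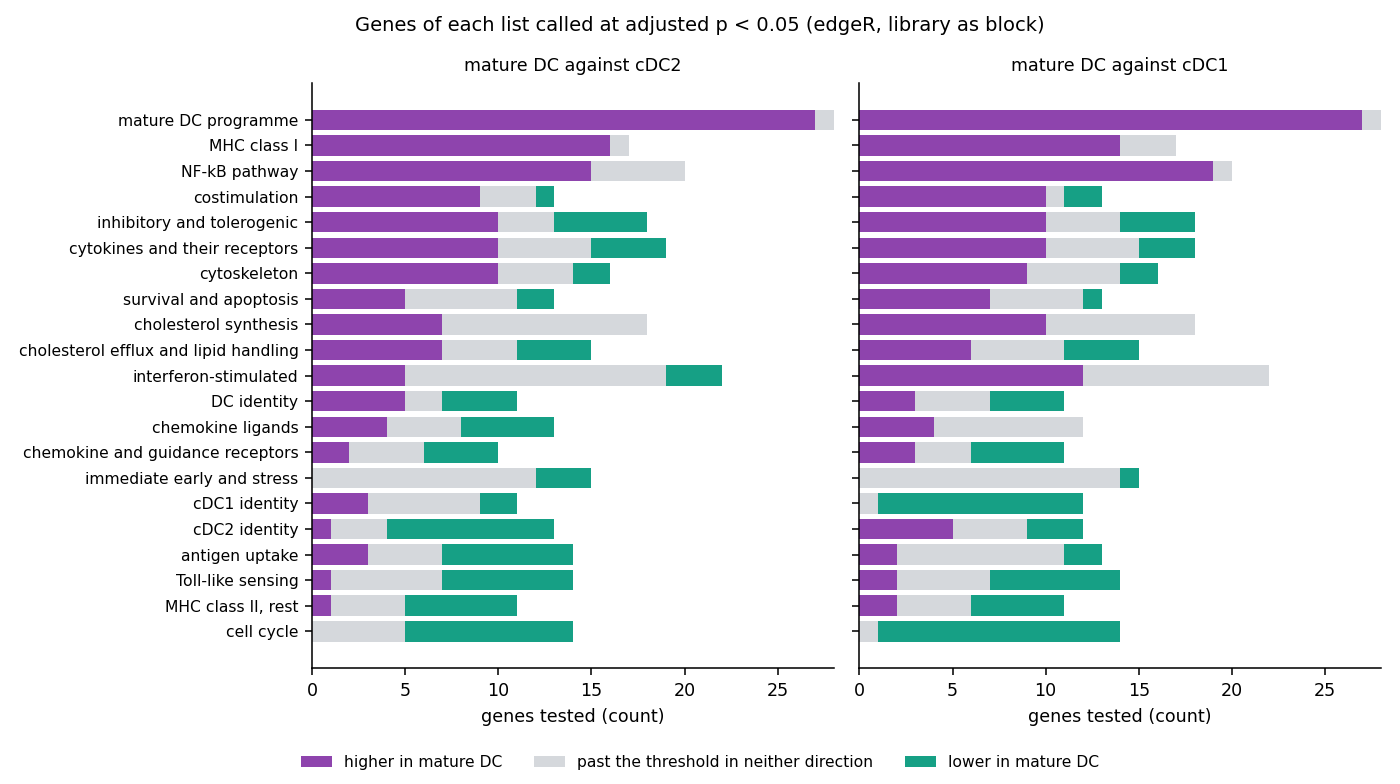
Number of genes of each list that were higher, lower or not called in mature dendritic cells against cDC2 and against cDC1 (edgeR, library as block, adjusted p under 0.05). The mature programme (27 of 28 higher on both sides), NF-kB (15 and 19 of 20) and MHC class I lists (16 and 14 of 17) were called mostly upward, whereas the cell cycle list (9 and 13 of 14) was called downward.

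The known programme of mature dendritic cells was higher almost throughout. Of its 28 genes, 27 were higher and none lower against cDC2, with a median log2 difference of 4.44, and the same counts held against cDC1, with a median of 4.90. Cacnb3, a calcium channel subunit, was at 316 CPM in NCD, 542 and 496 CPM in HFD and 421 CPM in JQF, but at no more than 0.64 CPM in the cDC2 of any library and 0.871 CPM in cDC1. Pooled over libraries it held 2726 UMIs in the members and 2 in cDC2, a ratio of 1719 (95% counting interval 475.5 to 14200). Socs2, an inhibitor of cytokine signalling, was at 286 to 332 CPM in the members and at most 1.92 CPM in cDC2, with no overlap (log2 difference 7.84, SE 0.32, adjusted p = 1.46e-05). Il4i1, a secreted enzyme that breaks down aromatic amino acids, was at 219, 521, 521 and 423 CPM in NCD, HFD replicate 1, HFD replicate 2 and JQF against 1.58 to 4.77 CPM in cDC1 (log2 difference 7.38, SE 0.28, adjusted p = 1.62e-05). Serpinb9, the inhibitor of granzyme B, was at 473 to 1389 CPM, highest in NCD, against 4.07 to 10.2 CPM in cDC2 (log2 difference 6.69, SE 0.37, adjusted p = 2.84e-05). Bcl2l14 and Serpinb6b differed from cDC2 by 7.98 and 6.99 on the log2 scale.

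Among chemokine ligands the direction was mixed. Against cDC2, 4 of 13 tested were higher and 5 lower, with a median of -0.06, and against cDC1 4 of 12 were higher and none lower. Without the endothelial-transcript members 4 of 13 were higher and 6 lower against cDC2 (median -0.77), and 5 of 12 higher and 2 lower against cDC1. Ccl22 (chr8:94745590-94751699) was at 713 CPM in NCD, 777 and 791 CPM in HFD and 1313 CPM in JQF, while cDC2 held 5.85, 46.1, 50.7 and 55.7 CPM in the same order and cDC1 13.2 to 41.5 CPM. Its log2 difference was 4.91 from cDC2 (SE 0.36, adjusted p = 5.59e-05) and 5.43 from cDC1 (SE 0.46, adjusted p = 0.000166). Ccl5, a chemokine that draws T cells, was at 1339, 4413, 3477 and 3616 CPM against 73.3 to 235 CPM in cDC2 (log2 difference 4.95, SE 0.38, adjusted p = 6.1e-05). Free RNA held 957 to 3118 CPM of Ccl5, and the cDC2 and cDC1 of the same libraries stayed at or below 235 CPM. Cxcl16, the CXCR6 ligand, was at 672 to 823 CPM in the members and 152 to 273 CPM in cDC2 (log2 difference 2.31, SE 0.30, adjusted p = 0.000725). Ccl4, an inflammatory chemokine, went the other way, at 68.8, 526, 155 and 274 CPM against 1112 to 2226 CPM in cDC2 (log2 difference -2.54, SE 0.40, adjusted p = 0.00197), and Ccl3 and Ccl6 were also lower (-1.62 and -2.54).

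Among chemokine and guidance receptors, more genes were lower than higher. Ccr2, which brings monocytes and dendritic cell precursors into inflamed tissue, was at 0, 7.98, 5.62 and 7.30 CPM in NCD, HFD replicate 1, HFD replicate 2 and JQF against 221 to 311 CPM in cDC2 and 224 to 348 CPM in cDC1. Its log2 difference was -5.15 from cDC2 (SE 0.33, adjusted p = 3.66e-05) and -5.29 from cDC1 (SE 0.33, adjusted p = 5.45e-05). Cx3cr1 was lower than in cDC2 (-2.03), and Cxcr3 and Ccr9 lower than in cDC1 (-6.39 and -3.02). In all, 2 of the 10 receptor genes tested were higher and 4 lower against cDC2, and 3 of 11 higher and 5 lower against cDC1. Without the endothelial-transcript members the counts were 1 higher and 5 lower of 9, and 3 higher and 5 lower of 10. The list's median against cDC1 was 0.67 with all members and -1.18 without those. Among the higher ones was Cxcr5, the receptor of CXCL13, at 7.45 and 15.8 CPM in HFD and 14.6 CPM in JQF against 2.92 to 9.60 CPM in cDC2 (log2 difference 1.70, SE 0.48, adjusted p = 0.0245) and at most 2.87 CPM in cDC1 (4.06, SE 0.79, adjusted p = 0.00563). NCD held 12 Cxcr5 UMIs, of which 1 was left without the endothelial-transcript members. The Cxcr5 levels of members and cDC2 overlapped, and that call was lost without HFD replicate 2 (log2 difference 1.61, adjusted p = 0.111) and without JQF (1.55).

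**Figure D3:**
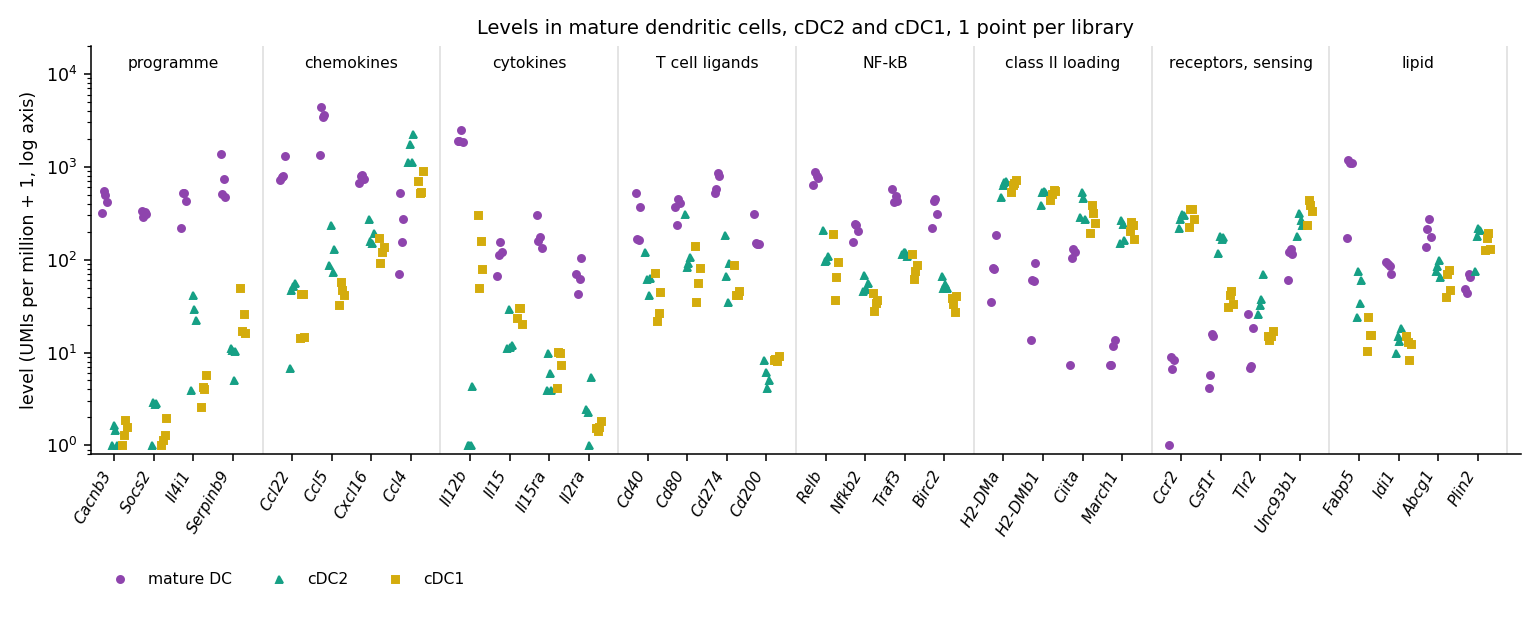
Levels (CPM + 1, log axis) of genes grouped by role in mature dendritic cells, cDC2 and cDC1, with 1 point per library and cell type. Cacnb3, Ccl22 and Il12b of the mature cells lay above both other types in every library, Ccr2, Csf1r and March1 lay below them, and Plin2 stood at 42.5 to 68.4 CPM against 74.6 to 216 CPM in cDC2.

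Among costimulation genes and among inhibitory genes, which include receptors and enzymes, more were higher than lower. Of 13 costimulation genes, 9 were higher and 1 lower against cDC2 (median 1.27), and 10 higher and 2 lower against cDC1 (median 1.92). The costimulation list summed to 5224 CPM in the NCD members against 7318 CPM in NCD cDC2, and to 3605 to 4893 CPM against 1834 to 2787 CPM in the other libraries. Cd40, the receptor for CD40L on helper T cells, was at 519 CPM in NCD, 167 and 160 CPM in HFD and 369 CPM in JQF, each above its library's cDC2 at 40.3 to 120 CPM (log2 difference 2.33, SE 0.22, adjusted p = 0.000171). Cd80 differed from cDC2 by 1.83 (adjusted p = 0.00771), and Tnfsf9, the ligand of 4-1BB, from cDC1 by 3.92 (adjusted p = 6.54e-05). Cd70, the CD27 ligand, was a low gene at 24.5 to 29.8 CPM in the members, with 152 pooled UMIs against 2 in cDC2. Cd48, a ligand of CD2 and 2B4, was lower than in cDC2 at 25.02 to 57.05 CPM against 102 to 224 CPM (log2 difference -1.84, adjusted p = 0.000448).

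The inhibitory and tolerogenic list had 10 of 18 genes higher and 5 lower against cDC2 (median 1.78), and 10 of 18 higher and 4 lower against cDC1 (median 2.76). Cd274 (chr19:29367455-29388095) was at 522 CPM in NCD, 580 and 847 CPM in HFD and 797 CPM in JQF, while cDC2 held 184, 65.9, 34.4 and 90.7 CPM and cDC1 40.1 to 87.0 CPM. It was higher in each library, by 3.41 on the log2 scale from cDC2 (SE 0.53, adjusted p = 0.00184) and 4.06 from cDC1 (SE 0.41, adjusted p = 0.000354). Cd200, whose receptor dampens myeloid cells, was at 310, 151, 146 and 147 CPM against 3.17 to 7.31 CPM in cDC2 (log2 difference 5.52, SE 0.22, adjusted p = 1.46e-05). Aldh1a2, the enzyme that makes retinoic acid, was at 178 CPM in NCD and 37.1 to 70.7 CPM elsewhere against 1.46 to 5.12 CPM in cDC2 (log2 difference 4.47, adjusted p = 6.44e-05). Fas was higher than in cDC1 by 5.03, and Havcr2, which encodes TIM-3, was lower than in cDC2 (-2.68, adjusted p = 0.000139).

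Il12b (chr11:44400063-44414033), which encodes the p40 chain shared by IL-12 and IL-23, was high in the members and nearly absent from cDC2. The members held 607, 3540, 4885 and 2772 Il12b UMIs in NCD, HFD replicate 1, HFD replicate 2 and JQF, or 1899, 1883, 2494 and 1839 CPM, whereas the cDC2 held none in 3 libraries and 9 UMIs in JQF. The pooled ratio to cDC2 was 1654 (95% counting interval 871 to 3619). The cDC1 held 299, 48.3, 156 and 79.2 CPM of Il12b, and the log2 difference from cDC1 was 4.42 (adjusted p = 0.000725, edgeR). In the list of cytokines and their receptors, 10 of 19 genes were higher and 4 lower against cDC2, and 10 of 18 higher and 3 lower against cDC1. Il15 and Il15ra, which together trans-present IL-15 to NK and CD8 T cells, were both higher than in cDC2, by 3.36 (SE 0.34, adjusted p = 0.000233) and 5.43 (SE 0.30, adjusted p = 2.82e-05). Il2ra and Il7r were higher than in cDC1 by 7.05 and 6.16, at 42.0 to 102 CPM and 15.6 to 189 CPM. Csf1r, the receptor of the macrophage growth factor, was at 3.13 to 14.8 CPM against 116 to 177 CPM in cDC2 (log2 difference -3.71, SE 0.33, adjusted p = 0.000119), and Il18 was lower than in cDC1 (-3.54).

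The NF-kB pathway was higher in most of its genes. Of 20 listed genes, 15 were higher and none lower against cDC2 (median 1.35), and 19 were higher and none lower against cDC1 (median 2.03). Relb was at 629 CPM in NCD, 870 and 801 CPM in HFD and 756 CPM in JQF against 94.7 to 206 CPM in cDC2 (log2 difference 2.98, SE 0.36, adjusted p = 0.000546). Its partner Nfkb2, which encodes p100 and p52, was at 153 to 238 CPM against 45.3 to 67.2 CPM (log2 difference 2.27, SE 0.21, adjusted p = 0.000161). Traf3 and Birc2, which hold the NF-kB-inducing kinase in check, were higher by 2.31 and 3.01, and the inhibitor Nfkbia was at 1773 to 2769 CPM against 455 to 696 CPM in cDC1 (log2 difference 2.14, SE 0.23, adjusted p = 0.000431).

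Because these genes were higher together, the 250 bases before their starts were searched for a form of the NF-kB binding motif, written as GGG, then 2 bases of any kind, then TTTCC, on both strands in RefSeq promoters of GRCm38.p6. It was found in 447 of 27025 genes with a promoter sequence (1.65%), in 5 of 16 matched NF-kB genes (Nfkb2, Rel, Nfkbia, Tnfaip3 and Traf3), in 3 of 11 genes of survival and apoptosis (Bcl2l1, Mcl1 and the pro-apoptotic Bbc3), in 2 of 11 chemokine ligands, in 2 of 14 matched MHC class I genes (H2-Q4 and B2m), in 3 of 24 genes of the mature programme, and in none of 8 costimulation and 15 inhibitory genes. Each other list, markers of other cells included, held it in at most 1 gene. Among genes higher in mature cells than in both cDC2 and cDC1, 34 of 1231 with a promoter held it (2.76%), against 18 of 1088 lower than both (1.65%) and 147 of 7904 tested in both fits (1.86%). The promoters of 4 of these genes are shown because 3 encode parts of the NF-kB pathway itself and the fourth an MHC class I chain; capitals mark the match, and each runs 5′ to 3′ on the gene's own strand. They lie at chr11:23770971-23771219 (Rel, minus strand), chr12:55492648-55492897 (Nfkbia, minus), chr12:111166120-111166369 (Traf3, plus) and chr2:122147437-122147685 (B2m, plus). The last base before the RefSeq start of Rel and of B2m lies within the GENCODE gene and is not printed.
Rel: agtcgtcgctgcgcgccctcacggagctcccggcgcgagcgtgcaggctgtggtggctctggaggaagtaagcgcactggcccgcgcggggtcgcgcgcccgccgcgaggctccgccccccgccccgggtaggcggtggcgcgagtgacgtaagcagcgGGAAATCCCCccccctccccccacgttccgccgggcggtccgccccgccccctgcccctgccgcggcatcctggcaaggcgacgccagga
Nfkbia: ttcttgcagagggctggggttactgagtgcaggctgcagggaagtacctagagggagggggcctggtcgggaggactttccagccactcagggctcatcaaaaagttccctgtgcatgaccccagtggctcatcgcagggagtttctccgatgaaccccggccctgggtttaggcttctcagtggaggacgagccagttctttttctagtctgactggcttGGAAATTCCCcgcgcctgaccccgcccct
Traf3: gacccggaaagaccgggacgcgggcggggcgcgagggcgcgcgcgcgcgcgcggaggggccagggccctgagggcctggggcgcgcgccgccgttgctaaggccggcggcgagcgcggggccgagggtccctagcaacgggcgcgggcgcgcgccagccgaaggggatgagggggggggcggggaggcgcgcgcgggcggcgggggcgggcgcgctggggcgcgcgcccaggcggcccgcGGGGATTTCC
B2m: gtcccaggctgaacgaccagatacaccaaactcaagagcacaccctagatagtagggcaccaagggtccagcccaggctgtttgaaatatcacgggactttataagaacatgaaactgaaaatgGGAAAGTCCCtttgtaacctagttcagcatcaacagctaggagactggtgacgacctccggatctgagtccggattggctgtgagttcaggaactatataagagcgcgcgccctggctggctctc
The match began 91, 29, 10 and 126 bases before the start of Rel, Nfkbia, Traf3 and B2m. It lay on the gene's strand in Traf3 and on the opposite strand in the others. A match describes the letters only, and binding was not measured.

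Against cDC2, more genes of microbial sensing and uptake were lower than higher. Of 14 Toll-like receptor pathway genes, 7 were lower and 1 higher against cDC2, and 7 were lower and 2 higher against cDC1. Tlr4, the receptor of bacterial lipopolysaccharide, was at 0.51 to 6.26 CPM against 7.31 to 19.2 CPM in cDC2, with 5 pooled UMIs in the members. The adaptor Myd88 was lower (-1.40, adjusted p = 0.00114). Tlr3, Tlr11 and Tlr12, receptors of the cDC1 kind, were lower than in cDC1 (-5.51, -2.49 and -4.86). Of 14 antigen uptake genes, 7 were lower and 3 higher against cDC2, among them the Fc receptor chain Fcer1g (-2.47, adjusted p = 0.000254) and Lrp1 (-2.71, adjusted p = 0.000421), and the median of the list was -2.57. Against cDC1, 2 of 13 uptake genes were higher and 2 lower (2 and 4 of 10 without the endothelial-transcript members). Ly75, which encodes DEC-205, ran against its list at 1902 CPM in NCD, 450 and 519 CPM in HFD and 673 CPM in JQF against at most 7.04 CPM in cDC2 and 42.4 to 134 CPM in cDC1 (log2 differences 7.67 and 3.75, adjusted p = 3.66e-05 and 3.59e-05).

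The machinery of antigen presentation split by class. Of 11 class II genes outside the rule, 6 were lower and 1 higher against cDC2 (median -1.66), and 5 lower and 2 higher against cDC1. March1, the ubiquitin ligase that removes class II from the surface of immature cells, was at 6.26, 6.38, 10.7 and 12.6 CPM against 149 to 270 CPM in cDC2 (log2 difference -4.13, SE 0.29, adjusted p = 4.77e-05). H2-DMa and H2-DMb1, which load peptide on class II, were lower (log2 differences -2.55, adjusted p = 0.000657, and -2.89, adjusted p = 0.000532), at 34.4 to 183 and 12.5 to 90.2 CPM in the members. The class II activator Ciita was lower (-1.87, adjusted p = 0.0187), whereas the class II chain H2-Eb1, at 2424, 6783, 5719 and 6361 CPM, did not pass the test against either type. Class I genes were higher: 16 of 17 genes were higher against cDC2 (median 1.60) and 14 of 17 against cDC1 (median 1.46), with none lower. Nlrc5, the class I activator, was at 310 to 373 CPM against 49.0 to 93.5 CPM in cDC2 (log2 difference 2.53, SE 0.25, adjusted p = 0.000194), and B2m at 3719 to 4730 CPM against 1110 to 1634 CPM in cDC1 (log2 difference 1.91, SE 0.19, adjusted p = 0.000352).

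Genes that define the immature kinds were mostly lower, and transcription factors of the dendritic lineage were present. Of 12 cDC1 identity genes tested against cDC1, 11 were lower and none higher, and of 13 cDC2 identity genes tested against cDC2, 9 were lower and 1 higher. The cDC1 and cDC2 were gated on genes of their kind, so genes that go with those are high in them by choice. The members were not gated by kind, so a mix of kinds cannot be told here from lower levels per cell. Ppt1 and Wdfy4 were lower than in cDC1 (-4.42 and -3.99). Clec10a held 1 UMI in all members together against 1315 in cDC2, and Itgam and Mgl2 were lower than in cDC2 (-5.06 and -4.59). Irf8, the cDC1 transcription factor, was at 1333 CPM in NCD, 345 and 332 CPM in HFD and 307 CPM in JQF, against cDC2 (40.5 to 110 CPM; log2 difference 3.11, adjusted p = 5e-05) and cDC1 (1227 to 1559 CPM; -1.36, adjusted p = 0.00911, called in 8 of 11 alternatives). The HFD and JQF values lay between the 2 kinds, and the NCD value lay within the range of cDC1. Zbtb46, the transcription factor of conventional dendritic cells, was higher than in both, by 1.65 and 1.60, and Irf4 was higher than in cDC1 by 3.17.

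Among lipid genes, those of cholesterol synthesis were called higher or not called, and those of efflux and lipid handling were called in both directions. Of 18 cholesterol synthesis genes, 7 were higher and none lower against cDC2, and 10 of 18 higher and none lower against cDC1. Of 15 efflux and lipid handling genes, 7 were higher and 4 lower against cDC2, and 6 were higher and 4 lower against cDC1. Idi1, an enzyme of the isoprenoid steps, was at 69.0 to 93.8 CPM against 8.77 to 17.5 CPM in cDC2 (log2 difference 2.92, SE 0.23, adjusted p = 7.43e-05). Fabp5, a fatty acid carrier, was at 169 CPM in NCD, 1173 and 1105 CPM in HFD and 1100 CPM in JQF against 23.4 to 74.2 CPM in cDC2 (log2 difference 4.45, SE 0.41, adjusted p = 0.000149) and 9.49 to 23.2 CPM in cDC1 (6.02, SE 0.47, adjusted p = 0.000132). Abcg1, a cholesterol exporter, was higher by 1.62 and 2.09, and Plin2, the coat protein of lipid droplets, was lower (-1.29 and -1.19), each against cDC2 and cDC1 in that order.

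Cell cycle genes were lower or not called, and genes of survival and apoptosis were called in both directions. Of 14 cell cycle genes, 9 were lower than in cDC2 and 13 lower than in cDC1, none higher. Mki67 was at 25.02 to 64.4 CPM against 43.9 to 169 CPM in cDC2 (log2 difference -0.81, SE 0.20, adjusted p = 0.0143, called in 9 of 11 alternatives), and Pclaf was lower than in cDC2 and cDC1 (-1.98 and -2.74). A Mki67 UMI was seen in 12.2%, 14.6% and 10.3% of thinned members of HFD replicate 1, HFD replicate 2 and JQF. Free RNA of these libraries held 876, 831 and 733 CPM of the cell cycle list, against 745, 640 and 468 CPM in the members. Whether the Mki67 UMIs came from free RNA was not tested. Of 13 genes of survival and apoptosis, 5 were higher and 2 lower against cDC2, and 7 higher and 1 lower against cDC1. Bcl2l1, which encodes Bcl-xL, was higher by 3.78 and 2.76, and Cflar, an inhibitor of caspase-8, by 2.46 and 3.92. Of 22 interferon-stimulated genes, 12 were higher and none lower against cDC1 (median 1.58), while against cDC2 5 were higher and 3 lower (median 0.01). Without the endothelial-transcript members 9 of 19 were higher and 4 lower against cDC1, and 6 of 21 higher and 7 lower against cDC2. Irf1 and Gbp2 were higher than in both, by 1.98 and 2.01 from cDC2 and 2.90 and 3.39 from cDC1.

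Of 16 cytoskeleton genes, 10 were higher and 2 lower against cDC2 and 9 higher and 2 lower against cDC1. Marcks, a regulator of cortical actin, was at 1227 to 1349 CPM in the 4 libraries against 180 to 238 CPM in cDC2 (log2 difference 2.96, SE 0.23, adjusted p = 6.44e-05), and Anxa1 was lower than in cDC2 (-3.85). Outside the lists, Tmem150c was at 97.0, 104, 125 and 102 CPM in the 4 libraries and had no UMI in any cDC2 or cDC1, so that with a floor of 3 UMIs over the group it was at least 262.8-fold higher than in cDC2 and 841.6-fold higher than in cDC1. Scin, which encodes the actin-severing protein scinderin, was at 84.9 to 246 CPM with no UMI in cDC2, at least 367.5-fold higher. Mreg was at 1140 to 1639 CPM against 1.58 to 8.997 CPM in cDC1 (log2 difference 8.83, SE 0.47, adjusted p = 3.88e-05). Dscaml1, Apol7c and Mab21l3 were the other genes named upward against cDC2, and Ctnnd2, Emp1, Gpr141, Tm6sf1 and Sla those named downward, at log2 differences from -5.96 (Ctnnd2) to -4.47 (Sla).

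The counts were also taken without the cells in doubt, the limit on endothelial UMIs being applied to mature cells, cDC2 and cDC1 alike. In that version 4257 of 10088 genes (42.2%) were called against cDC2 and 5385 of 10090 (53.4%) against cDC1. By direction, 20.5% were higher and 21.7% lower against cDC2, and 21.3% higher and 32.1% lower against cDC1, so that lower counts against cDC1 in this version stand beside a larger background. Without the NCD library, 4893 and 5839 were called.

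Compared with the NCD group, the mature dendritic cells of the HFD group differed in 1324 of 9687 genes (13.7%), 612 higher (6.32%) and 712 lower (7.35%), all groups in 1 edgeR fit with 1 residual degree of freedom from the HFD pair. Without the members holding endothelial transcripts, 110 of 9159 genes were called (1.2%), 24 higher (0.262%) and 86 lower (0.939%), and 109 genes were called with the same sign in both fits. With no filter on low counts none was called, with 2945 genes at an unadjusted p under 0.05, and DESeq2 called 386. All 6 called genes of the endothelial list were lower in HFD. With 1 NCD mouse, the diet and that mouse cannot be told apart, and fewer cells of a kind within the members cannot be told from less RNA per cell.

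Of the 86 genes lower in HFD in both fits, 51 had at least 50% of their NCD UMIs in 1 of the 8 cells and 61 were seen in 4 or more of the 8. Xcr1, with 48 NCD UMIs in 1 cell, and Timd4 and Il10 were of the first kind. Genes with a UMI in most NCD cells included Irf8, at 1333 CPM in NCD against 345 and 332 CPM in HFD (338.8 ± 9.12, SD, n = 2), with a log2 difference of -1.72 (SE 0.18, adjusted p = 0.00182) and of -2.27 without the endothelial-transcript members (adjusted p = 0.0166). Ly75 differed by -1.72 (SE 0.19, adjusted p = 0.00205) and -2.29 (adjusted p = 0.0168). Cd40, at 519 CPM in NCD against 167 and 160 CPM in HFD, differed by -1.41 (SE 0.20, adjusted p = 0.0059) and -2.05 (adjusted p = 0.0296). Of the 164 Cd40 UMIs in the 8 NCD cells, 61 and 54 were in 2 of the cells. The survival gene Bcl2l1, with a UMI in 5 of the 8 cells, differed by -1.66. The transcription factor Klf4 was seen in only 4 of the 8 and differed by -1.72. The highest of the 8 cells held 39.0%, 41.7% and 46.8% of the NCD UMIs of Ly75, Bcl2l1 and Klf4.

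Higher in HFD in both fits were Fabp5, at 169 CPM in NCD against 1173 and 1105 CPM (log2 difference 3.01, SE 0.23, adjusted p = 0.000618, and 2.49, adjusted p = 0.0225), and S100a4, a calcium-binding protein of motile cells, at 68.8 CPM against 1414 and 1072 CPM (4.43, SE 0.32, adjusted p = 0.000533, and 3.76, adjusted p = 0.0225). In the cDC2, cDC1 and endothelial cells of the HFD libraries Fabp5 was at 33.5 to 74.2, 14.5 to 23.2 and 397 to 518 CPM against 23.4, 9.49 and 78.2 CPM in NCD, and in free RNA, at 200.4 and 240.9 against 53.9 CPM. S100a6 was at 31.3 against 342 and 347 CPM, Ifi30, the lysosomal thiol reductase of antigen processing, at 638 against 2018 and 2080 CPM, and Tmem176b at 113 against 631 and 534 CPM. Hmgb2, which is high in dividing cells, was at 81.3 against 380 and 353 CPM. Ribosomal protein genes, a family taken up after these values were seen, were called higher in 70 of 82 with all members (median 1.03) and in 6 of 82 without the endothelial-transcript members (median 0.61), and none was lower. The 6 were Rpl35 (3.17), Rps29 (2.10), Rpl38 (1.89), Rps27 (1.72), Rpl10 (2.19) and Rps28 (1.77), as log2 differences, with 2.83, 1.65, 1.55, 1.43, 1.71 and 1.41 in the same order without the endothelial-transcript members. The family took 8.35% of all UMIs of the members in NCD (9.97% without the endothelial-transcript members) against 15.3% and 15.0% in HFD. Its share was also smaller in the other dendritic cells of NCD, with no test, at 12% against 17.4% and 18.3% in cDC2 and 13.1% against 19.5% and 19.5% in cDC1. The median mitochondrial share of a member was 2.01% in NCD and 2.00% and 2.05% in HFD. The part of library quality in these differences was not tested. All of the genes named here kept their sign under the alternatives that gave a value, and none passed with no filter on low counts.

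By list, the mature programme had 16 of 28 genes higher and 1 lower in HFD with all members (median 1.04) but 2 of 28 higher without the endothelial-transcript members (median 0.52). The class II list outside the rule went from 8 of 11 higher (median 1.62) to 1 of 11 (median 1.05), class I from 7 of 17 (median 0.64) to none (median 0.4), and NF-kB from 4 of 20 higher and 2 lower to none in either direction. Cholesterol synthesis had 8 of 17 genes lower with all members (median -1.50) and 3 of 17 without the endothelial-transcript members (median -2.02). The median of all genes was 0.125 and 0.222 in the 2 fits. Antigen uptake went from 7 of 10 lower to 2 of 8, its median moving from -4.51 to -0.34.

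**Figure D4:**
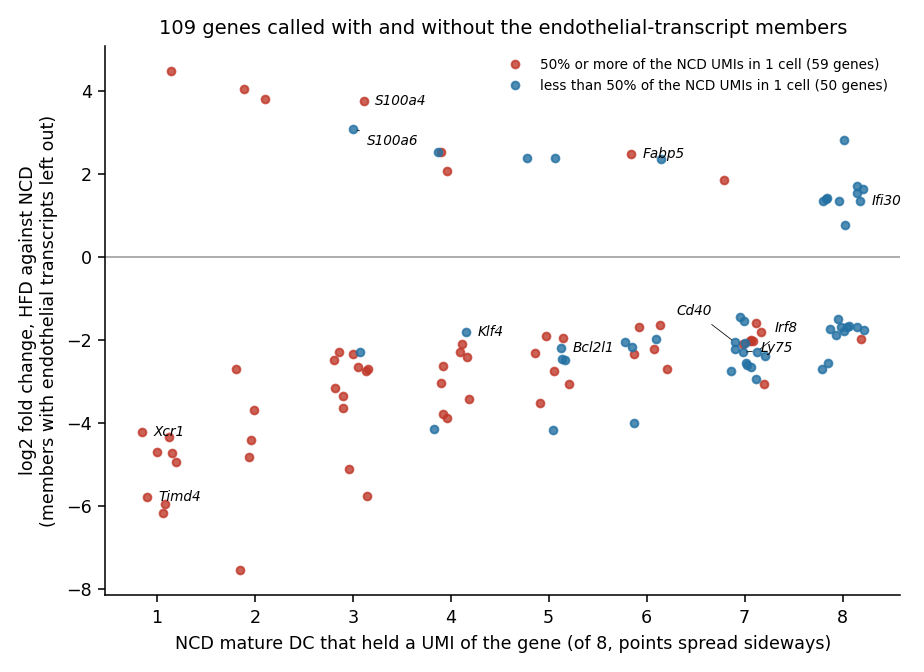
Log2 fold change of HFD against NCD for the 109 genes called both with all members and without the members holding endothelial transcripts, against the number of the 8 remaining NCD cells with a UMI of the gene. Red points are the 59 genes with 50% or more of their NCD UMIs in 1 cell; Irf8, Ly75 and Cd40 are among genes seen in most NCD cells, Xcr1 and Timd4 among those of 1 cell.

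Compared with the HFD group, no gene passed the test in the mature dendritic cells of the JQF group (0 of 9687, 0%; 911, 9.4%, at an unadjusted p under 0.05; DESeq2 called 1). Levels of some genes that lay outside the HFD pair are given as a description. With 1 JQF value beside 2 HFD values, a gene with no difference often lies outside the pair too. Ccl17, the other CCR4 ligand, was at 40.4 and 4.08 CPM in HFD and 521 CPM in JQF (log2 difference 4.57, SE 0.70, adjusted p = 0.177), and it was called in 5 of 10 alternatives. Of 12 genes picked for this comparison, not all of them given here, 8 passed in at least 1 alternative. The 12 were picked, so that count is no rate. Over all genes, the alternatives called from 0 to 216, the most being 216 of 9116 at a minimum of 3 Fscn1 UMIs. Few cells carried Ccl17: after thinning, 30 of 281 members had a Ccl17 UMI, 7 of 90 and 2 of 103 in the HFD libraries, 20 of 78 in JQF and 1 of 10 in NCD, and 3 cells held 56.1% of its UMIs. Cd40 was at 167 and 160 CPM in HFD and 369 CPM in JQF (1.19, SE 0.19, adjusted p = 0.177), with a UMI in 42.2% and 43.7% of thinned members in HFD and 64.1% in JQF. Cxcl9, the interferon-induced CXCR3 ligand, was at 70.7 and 135 CPM against 454 CPM (2.15, SE 0.33, adjusted p = 0.177), Klf4 differed by 1.44 (SE 0.19, adjusted p = 0.143), and H2-DMa by 1.22 (SE 0.20, adjusted p = 0.196). NCD held 519, 572 and 648 CPM of Cd40, Klf4 and Cxcl9 with all 10 cells and 693.6, 532.9 and 270.7 CPM without the endothelial-transcript members, where 61 of the 64 Cxcl9 UMIs were in 1 cell. The comparisons with NCD and with JQF share the HFD libraries, so no order of the 3 groups is read from these levels. Ccl22 was at 777 and 791 CPM in HFD and 1313 CPM in JQF (0.76, SE 0.17, adjusted p = 0.27), and the proliferation gene Top2a at 85.6 and 63.8 against 28.5 CPM (-1.37, SE 0.30, adjusted p = 0.267). Il12b, at 1883 and 2494 against 1839 CPM, differed by -0.24 (adjusted p = 0.784). In every list 0 genes were called in this comparison, with medians of 0.39 for chemokine ligands, 0.40 for the class II list outside the rule, 0.47 for cholesterol synthesis and -0.64 for the cell cycle, where the median of all genes was -0.016. The mature programme summed to 28646 CPM in JQF, below the 33746 and 34816 CPM of the HFD libraries.

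The difference between mature cells and cDC2 was also compared between groups, as the interaction of cell type and group in 1 edgeR fit with the library as a block. It differed between HFD and NCD for 1278 of 11409 genes (11.2%), 940 of them more positive in HFD (8.24%) and 338 more negative (2.96%), and for 354 of 11002 (3.22%) without the endothelial-transcript members. By list, 12 of 20 NF-kB genes were more positive in HFD (median 1.18), 7 of 20 without those members (median 0.85, where 2.77% of all genes were more positive), against medians over all genes of 0.287 and 0.492. Relb was at 206 CPM in NCD cDC2 and 94.7 and 98.2 CPM in HFD cDC2, while the mature cells held 629 CPM in NCD and 870 and 801 CPM in HFD (difference of log2 differences 2.02, SE 0.28, adjusted p = 3.74e-10). The NF-kB list as a whole summed to 10363 CPM in the NCD mature cells against 9220 and 9589 CPM in HFD, and to 8094 CPM in NCD cDC2 against 3895 and 4671 CPM in HFD cDC2. The level in cDC2 thus differed between the diets more than the level in mature cells. The immediate early and stress list moved likewise, at 33657 CPM in NCD cDC2 against 14492 and 20352 CPM in HFD cDC2 and at 14648 against 12888 and 10999 CPM in mature cells. Of its 15 genes, 13 were more positive in HFD, and 7 without the endothelial-transcript members. The part of these genes in the NF-kB result was not tested. The list sums here hold all gated cells, and the endothelial list stood at 575 CPM in NCD cDC2 against 11.5 and 35.8 CPM in HFD cDC2. The part of endothelial transcripts in these levels was not tested either. Between JQF and HFD, 264 genes were called (2.31%), but 6 (0.0545%) without the endothelial-transcript members. The p-values of the interaction fit rest mostly on a spread shared over genes and little on the spread between mice. Its prior degrees of freedom were 329.6, against 6.26 in the group fits.

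The members were not uniform, and Il12b was seen in only some of them. After thinning to 5000 UMIs, 142 of 281 members held an Il12b UMI: 5 of 10 in NCD (95% interval 18.7 to 81.3), 37 of 90 (41.1%, 30.8 to 52.0) and 62 of 103 (60.2%, 50.1 to 69.7) in HFD and 38 of 78 (48.7%, 37.2 to 60.3) in JQF. The shares thus differed as much between the HFD replicates as between groups, and the T cells of the same libraries gave at most 0.777%. What follows describes this split, which was chosen after the values were seen, and carries no test. In each of HFD replicate 1, HFD replicate 2 and JQF, 72 genes were at least 2-fold higher in the members with Il12b and 84 at least 2-fold higher in those without, among 3098 genes at 0.2 or more UMIs per thinned cell on either side.

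These genes were compared with the immature cells, which took no part in the split. Of the 72 genes higher with Il12b, 46 (63.9%) were higher in cDC1 than in cDC2 in all 3 libraries and 4 (5.56%) the reverse. Of the 84 genes higher without Il12b, 61 (72.6%) were higher in cDC2 and 7 (8.33%) in cDC1, against 34.86% and 31.15% of the 3098 genes. Cd81, a tetraspanin, averaged 2.49, 2.95 and 2.00 UMIs per thinned cell with Il12b and 0.208, 0.220 and 0.150 without, in HFD replicate 1, HFD replicate 2 and JQF. Bcl2l14 averaged 4.14, 4.71 and 2.05 with Il12b and 0.245, 1.00 and 0.725 without. On the other side S100a4 averaged 15.2, 14.4 and 13.9 UMIs without Il12b and 1.97, 2.47 and 4.50 with it, and Fabp5 10.7, 12.2 and 9.30 without and 2.24, 2.60 and 3.40 with it. Cxcl10, a CXCR3 ligand, was likewise of the cells without Il12b, at 1.17, 1.15 and 1.35 against 0.162, 0.0161 and 0.263 UMIs.

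Other genes ran along the same split to different degrees. Ly75 was seen in 90.1% of thinned members with Il12b and 58.3% of those without, Ccl22 in 78.2% and 56.8%, Irf8 in 64.1% and 46.0%, and the cDC1 gene Clec9a in 13.4% and 4.32%. Fabp5 was seen in 57.7% and 83.5%. Cd274 was seen in 78.2% and 77.0%, Ccl5 in 81.7% and 82.7%, Ccl17 in 10.6% and 10.8% and Relb in 99.3% and 94.2%, so that these 4 were spread over both sides.

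**Figure D5:**
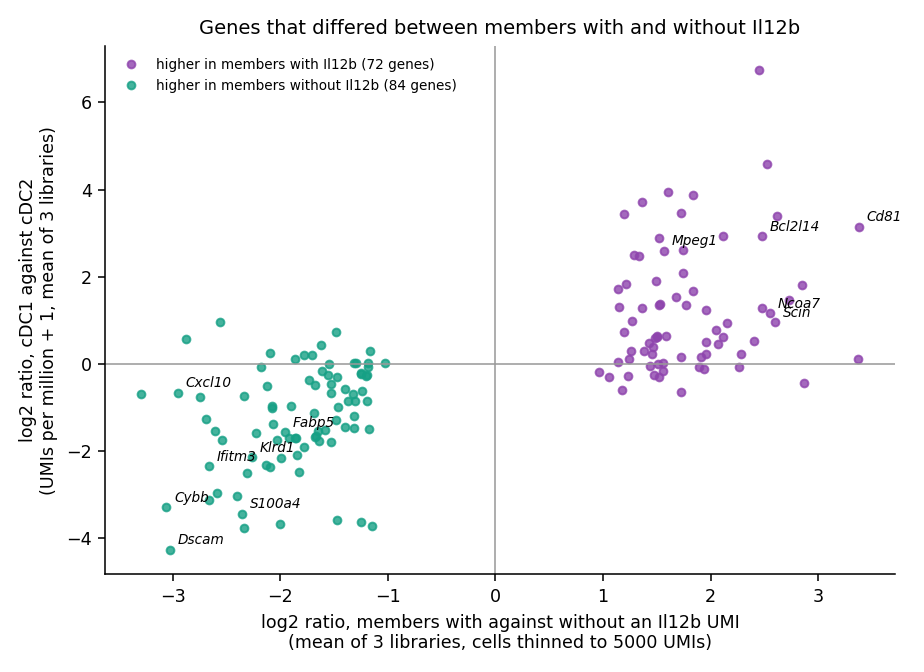
Each point is a gene that was at least 2-fold higher in members with (72 genes) or without (84 genes) an Il12b UMI in 3 libraries. The x axis is the mean log2 ratio between the 2 kinds of member in thinned cells and the y axis the mean log2 ratio of cDC1 to cDC2; the side on the x axis is fixed by the choice of genes, and 46 of the 72 genes were higher in cDC1 while 61 of the 84 were higher in cDC2 in all 3 libraries.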

How the data were processed

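Single-cell 3' libraries (10x Genomics) of perfused and digested liver were deposited for 4 mice, 1 NCD, 2 HFD and 1 JQF, as the authors' filtered matrices of UMI counts per gene and cell. The submitters' processing notes name Cell Ranger 6.0.1, Seurat 4.0.3 and mm10, and the file headers name another Cell Ranger release, so whether intronic reads were counted is not settled. Raw matrices of counts, also deposited, served only for the free RNA of barcodes with at most 100 UMIs. GEO's labels call the cells immune cells, and the kept cells also include endothelial cells and hepatocytes.

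The members, gene lists and comparisons were chosen with earlier results of these data known. Counts were summed per library and gated type and tested with edgeR 4.0.16 in R 4.3.3 (filterByExpr, TMM, quasi-likelihood test, Benjamini-Hochberg adjustment at 0.05), with the rule genes left out and at least 10 cells per library. The mature cells and cDC were compared with the library as a block, and groups in 1 fit of all libraries. SE is the standard error of a log2 fold change from that fit. Cells were thinned to 5000 UMIs with a fixed seed for shares of cells with a UMI. No doublets were removed, and Scrublet (scanpy 1.11.5) scores, cut at 0.8% per 1000 barcodes, gave an alternative, as did DESeq2 1.42.0, other scaling, no filter, other Fscn1 limits and leaving out each library. The tests of genes, interactions included, were checked on simulated counts with known changes and 1 dispersion for all genes, and the test of shares was not. Each check changed 200 genes, in equal parts by 2-fold and 4-fold. Of those changed 2-fold, 11 were called in HFD against NCD and 44 in JQF against HFD. Against cDC2 and cDC1 they were 44 and 50, and in the interactions 2 for HFD against NCD and 11 for JQF against HFD. Many 2-fold changes thus went uncalled.

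Named genes were the rule genes and the markers Fscn1, Ccr7, Ccl22 and Cd274, and up to 6 genes per list. In each list called genes came first, by adjusted p, and then genes not called, by the highest mean CPM in the mature cells. Outside the lists they were up to 5 called genes per direction with the largest change at 50 CPM or more and the same direction in every library pair. Not every gene so named is given. A gene named in 1 comparison may be given in another, and genes of the Il12b split were chosen after their values were seen. Confidence intervals are exact (Clopper-Pearson, 95%) and cover counting error only. Gene positions are from GENCODE release M21 on GRCm38.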

Additional observations from a re-analysis of the deposited data

Results flagged for a closer look

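The difference between mature dendritic cells and cDC2 was itself tested between groups, and it changed for 1278 genes between HFD and NCD and for 264 between JQF and HFD. The small p-values of this fit rest mostly on a spread shared over genes and little on the spread between mice.

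Between HFD and NCD, Relb differed by 2.02 (SE 0.28, adjusted p = 3.74e-10), at 629, 870, 801 and 756 CPM in the mature cells of NCD, HFD replicate 1, HFD replicate 2 and JQF and 206, 94.7, 98.2 and 108 CPM in cDC2. Map3k14, the NF-kB-inducing kinase, differed by 3.73 (SE 0.30, adjusted p = 9.72e-26), at 200.2, 489.9, 560.0 and 300.5 CPM against 360, 108, 95.5 and 97.7 CPM. Cd86 differed by 2.88 (SE 0.25, adjusted p = 2.86e-23), where cDC2 held 3630 CPM in NCD and 327 to 747 CPM elsewhere, while the mature cells held 378 to 857 CPM. Icam1 differed by 2.32 (adjusted p = 3.79e-13) and Ciita by 3.93 (adjusted p = 1.01e-07), the latter at 6.26 CPM in the NCD members and 102 to 130 CPM in the others, with cDC2 at 288 CPM in NCD and 270.1 to 527.5 CPM in the others. The NCD members held 2 Ciita UMIs, fewer than the floor of 3, so the size of that difference depends on the prior count of the fit. Ccl22 differed by -2.38 (SE 0.54, adjusted p = 0.000427), with 5.85 CPM in NCD cDC2 and 46.1 to 55.7 CPM in the others. Of the 228 Ccl22 UMIs of the NCD members, 141 and 74 were in 2 cells. These 6 differences kept their direction and passed without the endothelial-transcript members, where the same limit was applied to the cDC2. The levels given here hold all gated cells. The endothelial list stood at 575 CPM in NCD cDC2 against 11.1 to 35.8 CPM in the cDC2 of the others. The part of endothelial transcripts in these levels was not tested. NCD was 1 mouse with 30 cDC2 and 10 mature cells.

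Between JQF and HFD, 6 of the genes were called without the endothelial-transcript members, and these were Cxcl9, Cd81, Rsad2, Clu, Gm17276 and Glis3. Clu differed by -5.16 (SE 0.39, adjusted p = 2.8e-28), where cDC2 held 284 CPM in JQF against 7.68 and 0.905 CPM in HFD while the mature cells held 192 against 119 and 57.7 CPM. Markers of other cells also differed in these cDC2. The hepatocyte list stood at 155 CPM in JQF against 17.9 and 50.7 CPM in HFD, and the stellate and epithelial list at 174 against 67.2 and 75.6 CPM. The monocyte list was lower, at 743 against 1060 and 1193 CPM. Their part in the Clu difference was not tested. Cd81 differed by -3.24 (SE 0.37, adjusted p = 4.27e-13), Cxcl9 by 2.03 (SE 0.27, adjusted p = 7.17e-10) and Rsad2 by 2.52 (SE 0.33, adjusted p = 7.17e-10). Cxcl9 and Rsad2 did not pass in DESeq2 (adjusted p = 0.28 and 1). JQF was 1 mouse.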

How the results depend on the processing

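The comparisons with immature cells were the steadiest. Leaving out each library in turn gave 2214 to 4893 called genes against cDC2, where all libraries gave 3908 (2414 without HFD replicate 1, 2214 without HFD replicate 2, 2857 without JQF and 4893 without NCD), and 2656 to 5839 against cDC1, where all gave 4528 (2875, 2656, 3002 and 5839 in the same order). The cause of these differences was not tested. Of 95 called genes picked against cDC2, 6 lost their call in at least 1 alternative, and of 75 against cDC1, 1 did so, with no change of direction. Not all of these genes are given above. They were picked from the called genes, many by the lowest adjusted p, so these counts are no rates. The 1324 genes called for HFD against NCD became 386 in DESeq2, 0 with no filter on low counts (2945 at an unadjusted p under 0.05), 564 with the highest doublet scores removed and 110 without endothelial-transcript members. In the same comparison 24 called genes were picked, not all of them given above. Of their 192 tested alternative values, 28 lost the call, 24 of them with no filter, and none changed direction. Most of these genes were taken from those called with and without the endothelial-transcript members, so that count is no rate. The 0 genes for JQF against HFD became 1 in DESeq2 and 16 with only the JQF and HFD libraries in the fit. They became 216 at a minimum of 3 Fscn1 UMIs and 43 with the highest doublet scores removed, where NCD had fewer than 10 members and dropped out of the fit, and 166 and 23 with NCD kept by allowing 8 members, so no statement of equality rests on the 0. Of 120 tested alternative values of the 12 genes picked for that comparison, 28 passed, over 8 genes. The interaction counts of 1278 and 264 became 210 and 2 in DESeq2 and 354 and 6 without endothelial-transcript members, and the latter 142 with DESeq2 size factors. DESeq2 gave an adjusted p for 7433 of 9687 genes in HFD against NCD and for 2340 of 11409 in its interaction with cell type. Leaving out an HFD replicate in the group fits left no residual degree of freedom and gave values with no test. The log2 ratios of the share kept their direction under every alternative run and stayed short of the threshold under each one that gave a test, which leaving out an HFD replicate did not, from 0.77 to 4.05 for HFD against NCD and from -0.76 to -0.18 for JQF against HFD. For HFD against NCD, 8 members were likewise allowed at a minimum of 3 Fscn1 UMIs and with doublets removed. The fits against cDC2 and cDC1 at these settings were without NCD. No paired analysis between groups was possible because the groups held different mice, and a replicate number shared between groups marks no pair. Depth limits the NCD values most, since 3 UMIs in its members stand for 9.38 CPM against 1.53 to 1.99 CPM elsewhere.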
